A study of Mus musculus with 29 samples.

Results

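The peaks analysed are the whole list of the NIH-3T3 library labelled MAX-HA, divided by whether each peak overlapped either FOXA1-HA list by 1 bp or more. The list held 3836 of the 304922 peaks in the 28 lists of the series. On this rule 2082 of the MAX-HA peaks lay on a FOXA1-HA peak (54.3%, 95% exact interval 52.7 to 55.9%) and 1754 lay off FOXA1 (45.7%). The split used positions only, and location, sequence, nearest genes and the presence of other constructs were then compared between the classes. All intervals below are 95% exact (Clopper-Pearson) intervals and cover counting error over peaks only.

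The series mapped the genomic sites of HA-tagged transcription factors by ChIP-seq, a method in which cross-linked chromatin is precipitated with an antibody and sequenced. NIH-3T3 is a line of mouse fibroblasts. Every group used here was made in cells that carry the inducible transactivator rtTA3G together with a lentiviral, doxycycline-inducible transgene for 1 HA-tagged factor. MAX-HA and FOXA1-HA cells, like those of the other constructs, received 500 ng/ml doxycycline overnight, were fixed with 1% formaldehyde, and were precipitated with the same anti-HA antibody. The tagged factor was thus overexpressed in all of them. MAX-HA has 1 list, and FOXA1-HA has replicate 1 with 6033 peaks and replicate 2 with 1099. The other 22 constructs are single wild-type factors, the FOXA1 mutants FOXA1_RR-HA and FOXA1_SW-HA, and OCT4-HA co-expressed with SOX2-YPET. The lists give positions and no heights or read numbers, so the depth behind each list is unknown and the fibroblast identity of the cells could not be checked. With 1 MAX-HA library there is no replicate error for MAX, and the tests below take peaks as units. Neighbouring peaks are not independent, and the p-values describe these lists and not the spread between libraries.

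MAX is a basic helix-loop-helix leucine zipper protein. It binds DNA as a dimer with MYC, with MXD family repressors or with itself, and its best known recognition sequence is the E-box CACGTG, often found at promoters of genes for growth and biosynthesis. FOXA1 is a forkhead factor of liver and other endoderm-derived tissues that can bind its sites on nucleosomal DNA, and it recognises sequences such as TGTTTAC and TATTTAC. AP-1, a dimer of FOS and JUN family proteins, recognises TGAGTCA and is active at many fibroblast enhancers.

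The sequence content of the MAX-HA list went against its label, and whether the library and its construct are what the label says was not tested. In the central 200 bp of the 3836 peaks, scanned on both strands, the forkhead sequence TGTTTAC or TATTTAC was present in 41.8% (40.2 to 43.3%). The E-box CACGTG was present in 2.92% (2.41 to 3.503%). The forkhead sequence was frequent in peaks off FOXA1 as well as in those on it, and lay at the middle of the peaks of both classes. The windows printed first are 60 bases around the midpoints of 3 peaks of each class. These peaks are the widest with a forkhead sequence within 10 bases of the midpoint. The choice fixed that position, so the windows illustrate it and do not show how common it is. This set was chosen after the values were seen. The gene beside each window is the one with the nearest protein-coding start, at whatever distance. All windows are plus-strand GRCm38 sequence outside sites with 10 or more other constructs, and capitals mark the forkhead sequence on either strand.
On FOXA1, nearest start Zfp386, chr12:115496113-115496172: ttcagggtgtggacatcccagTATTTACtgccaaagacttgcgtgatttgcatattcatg
On FOXA1, nearest start Bfsp1, chr2:143853126-143853185: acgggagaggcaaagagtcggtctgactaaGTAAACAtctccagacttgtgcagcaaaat
On FOXA1, nearest start Ofcc1, chr13:39898576-39898635: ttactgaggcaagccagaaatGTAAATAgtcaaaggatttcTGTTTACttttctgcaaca
Off FOXA1, nearest start Bmi1, chr2:18678653-18678712: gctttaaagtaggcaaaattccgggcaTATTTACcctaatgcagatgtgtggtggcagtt
Off FOXA1, nearest start Runx2, chr17:44732989-44733048: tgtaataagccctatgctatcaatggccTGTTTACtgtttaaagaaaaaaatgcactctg
Off FOXA1, nearest start Sema3a, chr5:13386488-13386547: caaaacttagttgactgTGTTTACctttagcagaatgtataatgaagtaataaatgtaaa

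The peak near Bmi1, a Polycomb protein gene, lay in its promoter, 876 bp from the nearest start site. The peak near Runx2, the master regulator of osteoblasts, lay in an intron 1674 bp from the start, and the peak near Sema3a, a secreted guidance protein gene, lay in an intron at 10266 bp. The Runx2 and Sema3a peaks carried no other construct and the Bmi1 peak carried 1. The on-FOXA1 peaks lay 551581 bp from the start of Zfp386, 9787 bp from that of Bfsp1 and 389405 bp from that of Ofcc1, and carried 7, 6 and 7 other constructs. The Ofcc1 window holds a pair of forkhead sequences, on opposite strands.

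The central 200 bases of 4 wide peaks, each the widest of its class with the sequence named, are printed next, so that the sequences being counted can be seen in their context. Capitals mark the sequence named on each line.
Forkhead, off FOXA1, nearest start Baz2b, chr2:60123358-60123557: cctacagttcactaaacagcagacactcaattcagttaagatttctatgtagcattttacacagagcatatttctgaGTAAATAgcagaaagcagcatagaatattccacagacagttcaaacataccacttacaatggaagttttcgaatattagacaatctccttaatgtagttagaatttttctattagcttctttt
E-box CACGTG, on FOXA1, nearest start Rmi2, chr16:10850179-10850378: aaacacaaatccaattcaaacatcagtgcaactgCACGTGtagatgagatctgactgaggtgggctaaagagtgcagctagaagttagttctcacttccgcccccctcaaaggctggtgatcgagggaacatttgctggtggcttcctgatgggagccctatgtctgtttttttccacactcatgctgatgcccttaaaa
AP-1, on FOXA1, nearest start Sgk1, chr10:21790307-21790506: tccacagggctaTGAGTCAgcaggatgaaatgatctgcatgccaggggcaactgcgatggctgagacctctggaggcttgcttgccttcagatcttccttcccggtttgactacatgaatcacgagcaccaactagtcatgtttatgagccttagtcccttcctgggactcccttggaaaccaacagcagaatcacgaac
AP-1, off FOXA1, nearest start Sox9, chr11:112643315-112643514: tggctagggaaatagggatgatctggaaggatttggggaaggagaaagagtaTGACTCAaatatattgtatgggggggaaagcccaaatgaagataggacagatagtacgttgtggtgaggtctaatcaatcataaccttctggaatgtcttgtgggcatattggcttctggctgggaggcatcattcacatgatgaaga

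These 4 peaks were 1343 bp wide near Baz2b, a bromodomain gene, and between 623 and 790 bp wide elsewhere. Each carried 1 copy of the sequence it was chosen for. The Baz2b peak carried no other construct, while the E-box peak near Rmi2 carried 4, namely BHLHB8-HA, CDX2-HA, DLX6-HA and SOX2-HA. The AP-1 peaks lay 91777 bp from the start of Sgk1 and 138809 bp from that of Sox9, and both carried BHLHB8-HA, DLX1-HA, DLX6-HA, EBF1-HA, SIX6-HA and SOX2-HA, and the one at Sox9 carried SOX15-HA as well.

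Overlapping peaks of MAX-HA and FOXA1-HA were nearly coincident. The midpoints of an on-FOXA1 peak and its FOXA1 peak were a median of 25 bp apart (quartiles 11 and 49 bp), and a median of 93.1% of the MAX-HA peak was covered. The smallest overlaps were 4 bp at chr13:119491585-119491894 (nearest gene Tmem267), 9 bp (nearest gene Tnrc6b) and 20 bp (nearest gene Btg1). Just outside the rule, gaps of 26 bp at chr2:28591055-28591467 (nearest gene Gtf3c5), 69 bp (Nsmce2) and 70 bp (Cavin2) separated the nearest off-FOXA1 peaks. Few off-FOXA1 peaks were near misses, since the median gap to the nearest FOXA1 peak was 69540.5 bp and 85 (4.85%) had one within 1000 bp.

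The FOXA1-HA lists contributed unequally to the split. Replicate 1 overlapped 2056 MAX-HA peaks and replicate 2 overlapped 664, of which 638 were shared by both. Without replicate 1 the on-FOXA1 share was 17.3%. Taken the other way, 2084 of the 6275 merged FOXA1-HA peaks (33.2%, 32.0 to 34.4%) carried a MAX-HA peak. Among all constructs FOXA1-HA covered the third largest share of MAX-HA peaks, behind BHLHB8-HA at 60.2% and SOX2-HA at 55.3% and ahead of DLX6-HA at 51.3%. Those lists hold 83627, 25452 and 20983 merged peaks, against 6275 for FOXA1-HA. As a share of a construct's own peaks, FOXA1_RR-HA had the most on MAX-HA, with 91 of 151 (60.3%, 52.0 to 68.1%), and the intervals of PRR3-HA at 51.6%, THAP4-HA at 50% and OCT4-HA at 47.9% overlapped its own. Without peaks of 10 or more other constructs, 35 on-FOXA1 and 3 off-FOXA1 MAX-HA peaks still carried FOXA1_RR-HA, of 90 and 3.

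The forkhead sequence was common in both classes. It was present in 839 of 2082 on-FOXA1 peaks (40.3%, 38.2 to 42.4%) and in 763 of 1754 off-FOXA1 peaks (43.5%, 41.2 to 45.9%). The log2 odds ratio, on over off, was -0.19 ± 0.09 (SE), with an unadjusted p of 0.0486 and an adjusted p of 0.0851 in Fisher's exact test, two-sided, with Benjamini-Hochberg adjustment over 7 sequences. Both shares were far above those of control windows of 200 bp placed 5 kb to the right, none of which overlapped a peak in the series. There the sequence was in 112 of 1860 windows beside on-FOXA1 peaks (6.02%) and in 105 of 1607 beside off-FOXA1 peaks (6.53%), with adjusted p = 3.37e-153 and 9.54e-145 against the peaks (Fisher's exact test over 14 comparisons). Over all 13237130 windows of 200 bp tiled along the genome, 6.84% held it.

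Both classes carried the forkhead sequence at their centre. In 50 bp bins around the midpoint, the sequence was in 17.1% and 17.6% of on-FOXA1 peaks in the bins just left and right of it and in 18.6% and 17.8% of off-FOXA1 peaks. In the bin centred 975 bp to the right, the shares were 1.34% and 1.31%. Of the peaks with the sequence, 532 of 839 on FOXA1 (63.4%) and 451 of 763 off FOXA1 (59.1%) had it within 25 bp of the midpoint.

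**Figure D1:**
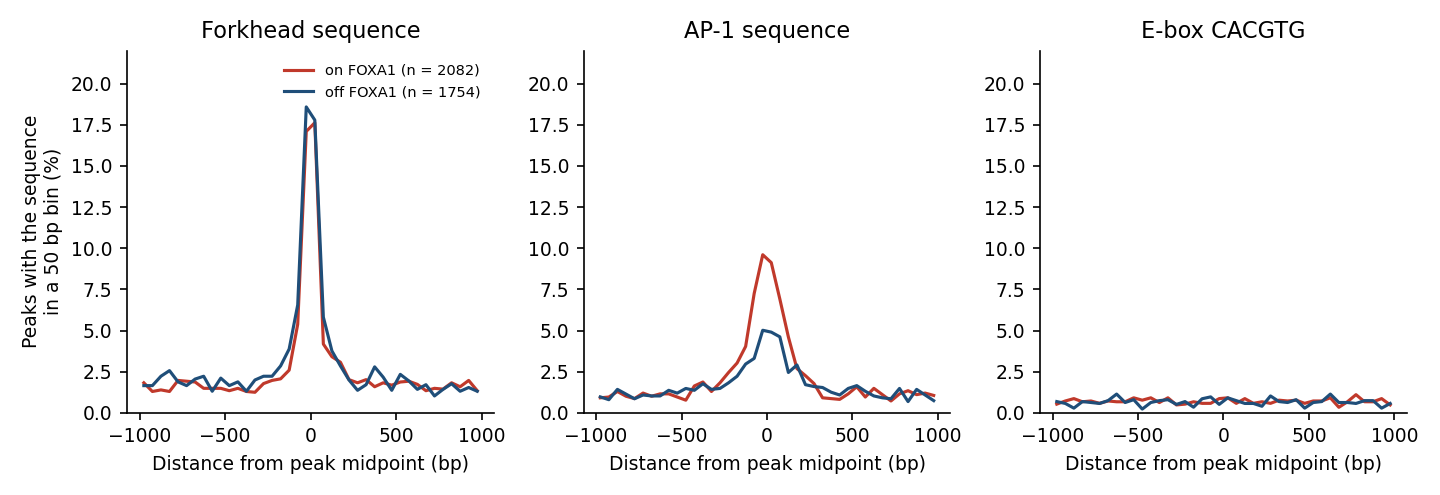
Share of MAX-HA peaks (%) with the forkhead, AP-1 or E-box CACGTG sequence in each 50 bp bin, by distance from the peak midpoint in bp. Red lines are peaks on FOXA1 and blue lines are peaks off FOXA1. The forkhead lines rise to 17.6% and 18.6% at the midpoint and overlie each other, the AP-1 lines reach 9.61% on FOXA1 and 5.02% off it, and the E-box lines stay flat.

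The 2 forkhead words differed in use. TGTTTAC was in 26.4% of on-FOXA1 peaks (24.5 to 28.4%) and in 22.8% of those off FOXA1 (20.9 to 24.8%). TATTTAC went the other way, at 15.7% (14.2 to 17.3%) and 23.4% (21.4 to 25.4%). On FOXA1, TGTTTAC was therefore the more frequent word by count, with 550 peaks against 327, whereas off FOXA1 the words were near equal, with 400 and 410. The difference between words was read from the counts after they were seen and was not tested. Peaks with 2 or more copies of either word numbered 82 on FOXA1 (3.94%) and 97 off FOXA1 (5.53%).

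The E-box of MAX was infrequent in both classes. CACGTG was in 58 on-FOXA1 peaks (2.79%, 2.12 to 3.59%) and 54 off-FOXA1 peaks (3.08%, 2.32 to 4.00%), a log2 odds ratio of -0.15 ± 0.28 (SE) with adjusted p = 0.662 (Fisher's exact test). The control windows 5 kb away held it in 2.26% and 2.43%, with Fisher's adjusted p = 0.363 against the peaks for either class, and all genome windows in 1.92%. The non-canonical E-box CACGCG was in 1.15% and 1.31% of peaks, against 0.591% and 0.622% of control windows, with Fisher's adjusted p = 0.0887 and 0.0827. The intervals of both classes for CACGTG lay above the share of all genome windows, while the differences from the control windows did not pass the test.

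Among all lists, MAX-HA had the highest forkhead share. FOXA1-HA followed with 37.2% in replicate 1 (36.0 to 38.4%) and 33.1% in replicate 2 (30.3 to 36.0%), then FOXA1_RR-HA with 17.2% of 151 peaks and CDX2-HA with 12.2%. The interval of MAX-HA lay above those of both FOXA1-HA lists. For CACGTG the MAX-HA list ranked 13 of the 28, and the highest share was 7.49% in TEAD1-HA. Off-FOXA1 MAX-HA peaks carried the forkhead sequence more often than the 4191 FOXA1-HA peaks without MAX-HA did, at 43.5% against 33.7% (p = 1.29e-12, Fisher's exact test).

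**Figure D2:**
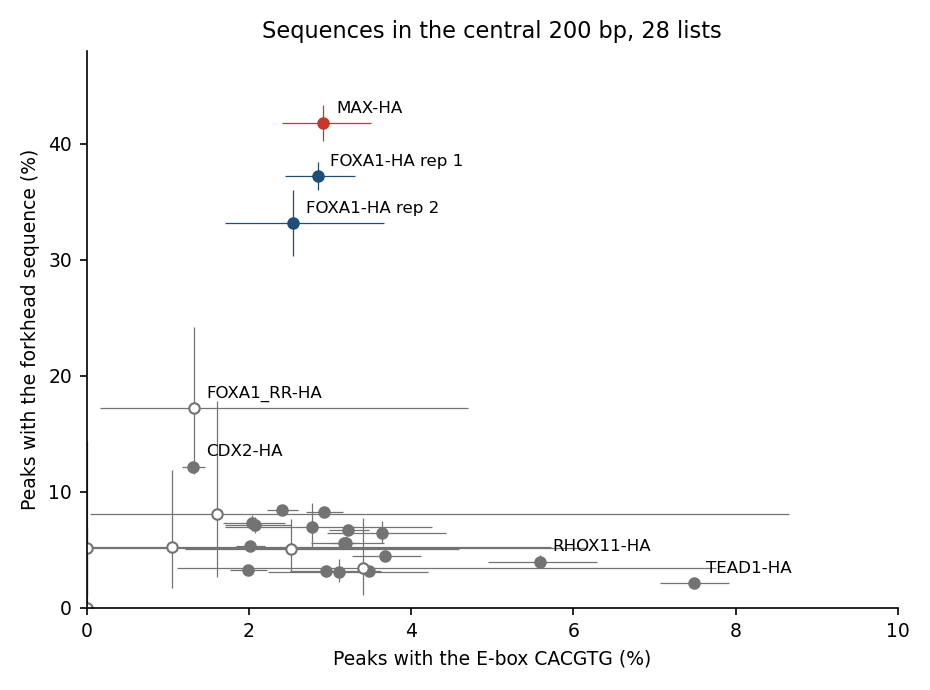
Share of peaks (%) with the forkhead sequence against the share with the E-box CACGTG, in the central 200 bp of each of the 28 lists. Points are lists, bars are 95% exact intervals, open points are lists under 500 peaks, red is MAX-HA and blue is FOXA1-HA. MAX-HA lies highest on the forkhead axis at 41.8%, next to FOXA1-HA, and at 2.92% on the E-box axis, among most other lists.

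AP-1 was, of the 7 sequences counted, the one with the largest difference between the classes. None of the 7 contains another. TGAGTCA, whose reverse complement is TGACTCA, was in 619 on-FOXA1 peaks (29.7%, 27.8 to 31.7%) and in 285 off-FOXA1 peaks (16.2%, 14.6 to 18.1%), a log2 odds ratio of 1.12 ± 0.12 (SE) with adjusted p = 2.89e-22 (Fisher's exact test). Control windows held it in 2.80% and 2.92%, and all genome windows in 3.10%, so off-FOXA1 peaks were above background too (Fisher's adjusted p = 2.16e-41). The sequence peaked at the midpoint in both classes, at 9.61% of on-FOXA1 and 5.02% of off-FOXA1 peaks in the bin just left of it. Forkhead and AP-1 sequences occurred together in 236 on-FOXA1 peaks (11.3%) and 79 off-FOXA1 peaks (4.50%). A forkhead sequence without AP-1 was in 28.96% of on-FOXA1 peaks and 39.0% of those off FOXA1, and neither was in 41.3% and 44.8%.

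RUNX and TEAD sequences were also more frequent on FOXA1. TGTGGT, recognised by RUNX factors, was in 23.9% of on-FOXA1 and 16.0% of off-FOXA1 peaks (adjusted p = 4.84e-09, Fisher's exact test). CATTCC, recognised by TEAD factors, was in 15.4% and 11.4% (Fisher's adjusted p = 0.000881). Off FOXA1, neither passed the test against its control windows, which held TGTGGT in 15.6% (Fisher's adjusted p = 0.740) and CATTCC in 10.8% (adjusted p = 0.669). Genome windows held them in 13.7% and 10.8%. CCAAT, the box bound by NF-Y, was in 24.0% and 23.1% of the classes (Fisher's adjusted p = 0.662), below the 29.6% of genome windows. Peaks on FOXA1 were wider and richer in G and C. Their median width was 301 bp against 263 bp, and the median GC content of the central window was 45% against 41.5%. The part of width and GC content in the sequence differences was not tested.

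Off-FOXA1 peaks were more often at promoters, meaning that the midpoint lay no more than 1 kb from a protein-coding start site. There were 310 such peaks off FOXA1 (17.7%, 15.9 to 19.5%) and 155 on FOXA1 (7.44%, 6.35 to 8.66%), a log2 odds ratio, on over off, of -1.41 ± 0.15 (SE) with adjusted p = 2.22e-21 (Fisher's exact test over 5 locations). By extent, 2.44% of the known genome lies that near a start. Peaks in exons outside coding sequence were also more frequent off FOXA1, at 6.50% against 3.75% (Fisher's adjusted p = 0.000176). Introns held 46.2% off FOXA1 and 46.5% on it (Fisher's adjusted p = 0.871). Peaks between genes were more frequent on FOXA1, at 41.9% against 29.1% (Fisher's adjusted p = 5.30e-16). The median distance to the nearest start was 27867.5 bp on FOXA1 and 10836 bp off it.

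The classes sat differently around the start site itself. On-FOXA1 peaks were most numerous in the 250 bp just upstream, with 52 peaks in the bin centred at -125 bp and 20 in the bin at 125 bp. Off-FOXA1 peaks were most numerous downstream, with 59 and 60 peaks in the bins centred at 625 and 875 bp and 23 in the bin at 125 bp. Of the promoter peaks, 94 of 155 on FOXA1 (60.6%) and 136 of 310 off FOXA1 (43.9%) lay upstream of the start. Their median distance from it was 307 bp and 551.5 bp. Within 100 bp of a start the classes had 35 and 26 peaks, whereas between 100 and 1000 bp they had 120 and 284. These bins are a description, with no test of their own.

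**Figure D3:**
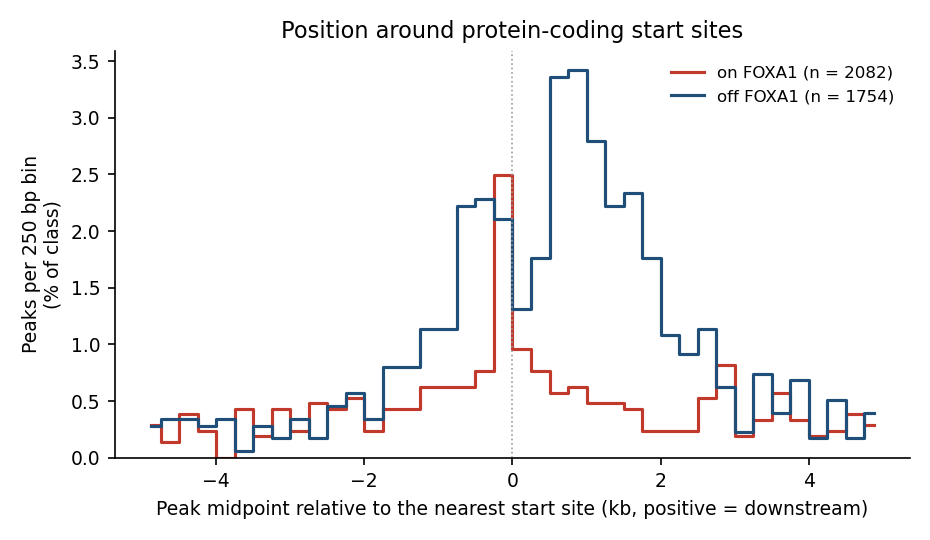
Share of each class (%) per 250 bp bin, by position of the MAX-HA peak midpoint relative to the nearest protein-coding start site in kb, with positive values downstream. Red is peaks on FOXA1 and blue is peaks off FOXA1. The red line has a single summit of 2.50% just upstream of the start, while the blue line has a higher summit of 3.42% centred 875 bp downstream.

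The AP-1 difference was present both at promoters and away from them. At promoters the forkhead sequence was in 78 of 155 on-FOXA1 peaks and 156 of 310 off-FOXA1 peaks, 50.3% in each. AP-1 was in 15.5% and 4.52% of them (adjusted p = 0.00049, Fisher's exact test over 14 comparisons) and CCAAT in 34.2% and 20% (adjusted p = 0.00467). CACGTG was in 6 and 11 promoter peaks, 3.87% and 3.55%. Away from promoters AP-1 was in 30.9% and 18.8% (Fisher's adjusted p = 1.33e-14), and the forkhead sequence in 39.5% and 42.0% (adjusted p = 0.239).

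The widest promoter peaks illustrate these locations. On FOXA1 they lay near Smim15 (chr13:108043356-108044063, 708 bp), Ibtk (702 bp) and Ubb (635 bp), a polyubiquitin gene. Off FOXA1 they lay near Dusp16 (chr6:134790687-134791468, 782 bp), a MAP kinase phosphatase gene, Igf2bp2 (653 bp), which encodes an RNA-binding protein, and Sclt1 (647 bp). Those on FOXA1 carried 2, 4 and 6 other constructs and those off FOXA1 carried 2, 0 and 0. Of the 6, only the Igf2bp2 peak had a forkhead sequence in its central window, and none had CACGTG. Away from promoters the widest on-FOXA1 peaks were 1461 bp wide at 5943 bp from the start of Vmn1r3, 1008 bp wide at 3240 bp from that of Mbnl1, a splicing regulator gene, and 900 bp wide at 468255 bp from that of Gsdmc. The Vmn1r3 peak was on FOXA1 through replicate 2 only. The widest off-FOXA1 peaks included those near 4932411N23Rik on the X chromosome (1587 bp) and Baz2b (chr2:60122787-60124129, 1343 bp), and neither carried another construct.

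Other constructs were present more often at on-FOXA1 peaks. At least 1 of the 22 other constructs shared bases with 1957 on-FOXA1 peaks (94.0%, 92.9 to 94.98%) and with 1012 off-FOXA1 peaks (57.7%, 55.3 to 60.0%), a log2 odds ratio of 3.52 ± 0.15 (SE) with p = 5.29e-168 (Fisher's exact test). The median number of other constructs was 5 on FOXA1 and 1 off it. MAX-HA peaks with no other construct numbered 125 on FOXA1 (6.00%) and 742 off FOXA1 (42.3%). At the other end, 10 or more other constructs were present at 121 on-FOXA1 peaks (5.81%) and at 4 off-FOXA1 peaks (0.228%, log2 odds ratio 4.59, Fisher's p = 1.51e-27). These shares depended on the FOXA1-HA lists used, being 13.1% and 1.198% without replicate 1 (log2 odds ratio 3.62) and 5.25% and 0.955% without replicate 2 (log2 odds ratio 2.49). Peak strength is not in the files, and its part in these differences was not tested.

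All 22 other constructs had a higher share on FOXA1 (percent called 100; lower on FOXA1, percent called 0). The largest adjusted p was 0.000276, for TEAD1-HA at 2.45% against 0.912% (Fisher's exact test, adjusted over 22 constructs). The most frequent were BHLHB8-HA, a basic helix-loop-helix factor, at 79.4% of on-FOXA1 and 37.4% of off-FOXA1 peaks, and SOX2-HA, an HMG-box factor, at 75.7% and 31.0%. The homeodomain factors DLX6-HA and DLX1-HA were at 72.9% and 25.8%, and at 61.6% and 25.3%. SOX15-HA was at 37.0% and 10.4%, and SIX6-HA at 30.3% and 6.04%. The FOXA1 mutants were found mostly at on-FOXA1 peaks, with 90 against 3 for FOXA1_RR-HA and 52 against 3 for FOXA1_SW-HA. PRR3-HA and THAP4-HA were found at 34 and 29 on-FOXA1 peaks and at 0 of 1754 off-FOXA1 peaks, a count that allows a share of up to 0.171% (3 counts).

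**Figure D4:**
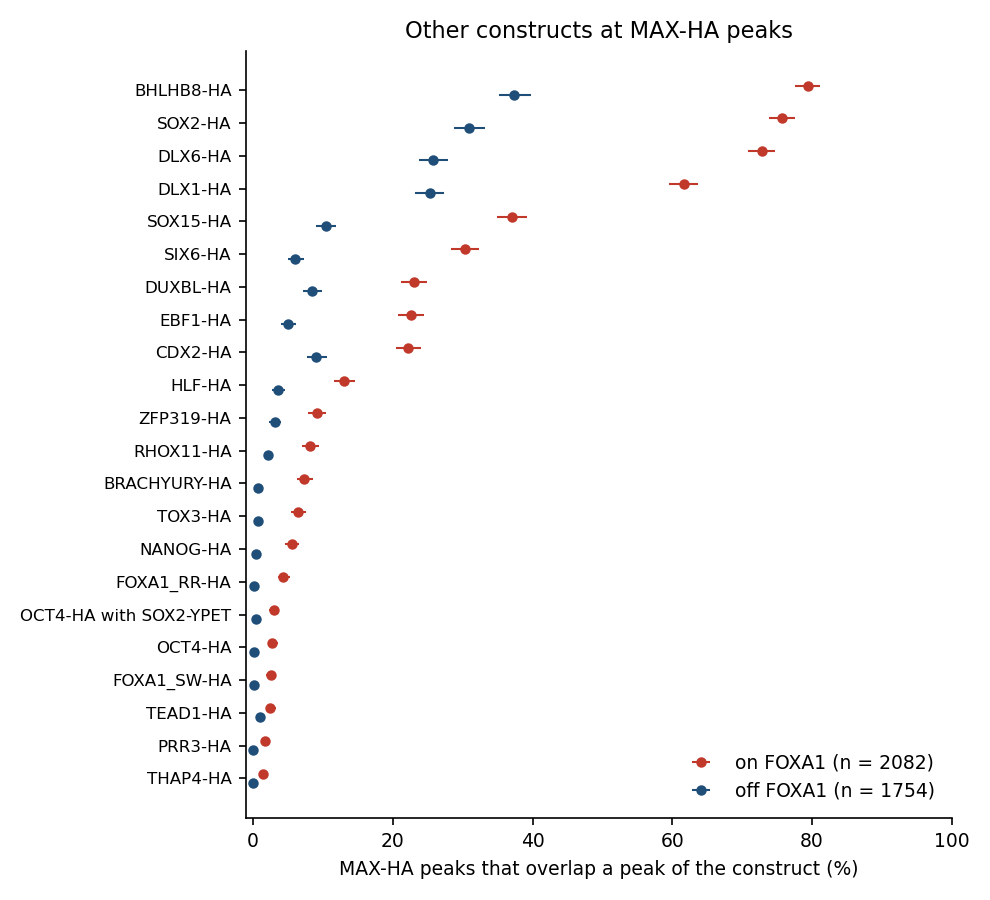
Share of MAX-HA peaks (%) that overlap a peak of each of the 22 other constructs, one row per construct. Red points are peaks on FOXA1, blue points are peaks off FOXA1, and bars are 95% exact intervals. Every red point lies to the right of its blue point, from 79.4% against 37.4% for BHLHB8-HA to 1.39% against 0% for THAP4-HA.

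Some of these differences rested on sites of many constructs. Without peaks of 10 or more other constructs, 17 of the 22 constructs passed. FOXA1_SW-HA was then at 2 on-FOXA1 peaks and 1 off-FOXA1 peak, PRR3-HA at 1 and 0, THAP4-HA at 2 and 0, OCT4-HA at 8 and 1 (adjusted p = 0.0508, Fisher's exact test) and OCT4-HA with SOX2-YPET at 8 and 6. FOXA1_RR-HA remained higher, with 35 and 3 peaks (Fisher's adjusted p = 3.43e-07). The large lists kept their order, with DLX6-HA at 72.0% and 25.6%.

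The forkhead share was lower at MAX-HA peaks with more other constructs. With no other construct it was 59.2% on FOXA1 (50.1 to 67.9%, 125 peaks) and 53.1% off FOXA1 (49.4 to 56.7%, 742 peaks). With 3 to 5 it was 42.8% and 30.4%, and with 6 to 9 it was 31.0% and 20.2%. At 10 or more it was 11.6% of 121 on-FOXA1 peaks (6.47 to 18.7%) and 1 of 4 off FOXA1. On-FOXA1 peaks had the higher forkhead share in each bin counted up to 9 other constructs (0, 1 to 2, 3 to 5 and 6 to 9). Their share over all peaks was the lower. For peaks with no other construct, a subset added after the data were seen, the log2 odds ratio was 0.35 (p = 0.209, Fisher's exact test).

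AP-1 ran in the opposite direction off FOXA1. It was in 9.30% of off-FOXA1 peaks with no other construct, 16.1% with 1 to 2, 25.2% with 3 to 5 and 32.5% with 6 to 9. On FOXA1 it was in 20.8%, 31.0%, 30.04% and 34.0% of these peaks, and in 9.92% of those with 10 or more. With no other construct the classes still differed in AP-1 (log2 odds ratio 1.37, p = 0.000506, Fisher's exact test). Off FOXA1 the promoter share was 21.4% with no other construct, 23.6% with 1 to 2, 6.23% with 3 to 5 and 6.14% with 6 to 9. On FOXA1 it was 12%, 15.2%, 7.12% and 3.03%, and 6.61% with 10 or more.

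**Figure D5:**
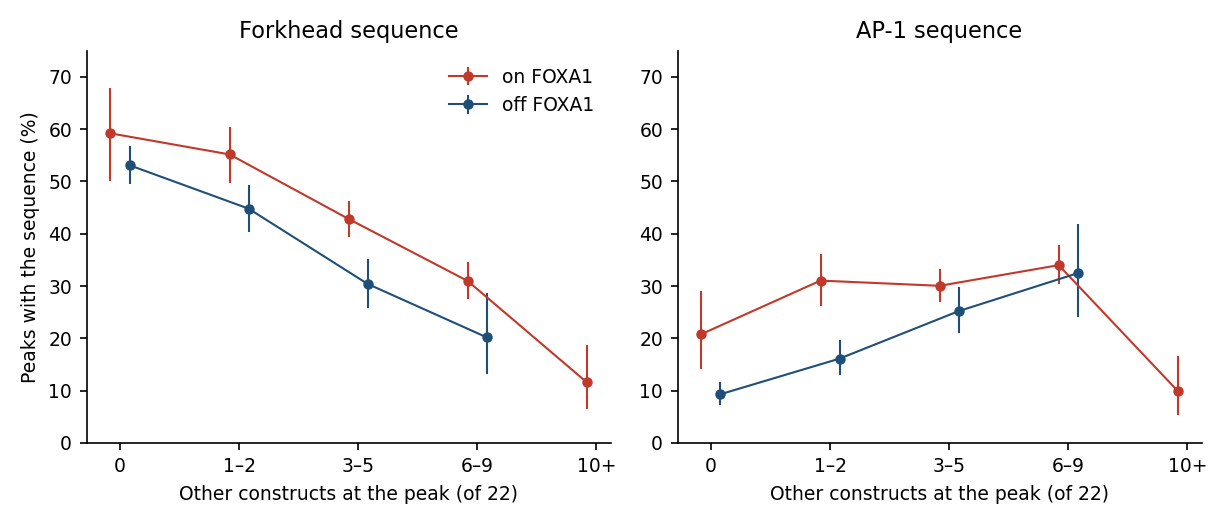
Share of MAX-HA peaks (%) with the forkhead sequence (left) and the AP-1 sequence (right) in the central 200 bp, by number of the 22 other constructs at the peak. Red is on FOXA1, blue is off FOXA1, bars are 95% exact intervals, and the 4 off-FOXA1 peaks with 10 or more constructs are not drawn. The forkhead share falls from 59.2% to 11.6% on FOXA1 and from 53.1% to 20.2% off it, while the AP-1 share off FOXA1 climbs from 9.30% to 32.5%.

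Seen from FOXA1, its peaks with MAX-HA differed from those without. The forkhead sequence was in 843 of 2084 FOXA1-HA peaks with MAX-HA (40.5%) and in 1412 of 4191 without (33.7%), a log2 odds ratio of 0.42 ± 0.08 (SE) with adjusted p = 4.33e-07 (Fisher's exact test over 10 measures). Without FOXA1-HA replicate 1 the shares were 42.3% and 19.1% and the log2 odds ratio 1.63. AP-1 was in 30.5% and 22.6% (Fisher's adjusted p = 1.00e-10), and CACGTG in 2.54% and 2.93% (adjusted p = 0.521). Promoter peaks made up 7.44% and 4.92% (Fisher's adjusted p = 0.000172). Any other construct was present at 94.0% and 81.7%. RUNX went the other way, at 25.1% and 27.96% (Fisher's adjusted p = 0.0263).

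The MAX-HA peaks on FOXA1 were also divided by FOXA1-HA replicate. The forkhead sequence was in 41.8% of the 638 MAX-HA peaks on both replicates, in 40.1% of the 1418 on replicate 1 only and in 4 of the 26 on replicate 2 only (15.4%, 4.36 to 34.9%). AP-1 was in 33.9%, 28.3% and 3.85% of these, against 16.2% of peaks on neither. Promoters made up 5.49%, 8.18% and 15.4%, against 17.7%. Another construct was present at 97.0% of peaks on both replicates (95.4 to 98.2%), at 92.6% of those on replicate 1 only (91.1 to 93.9%) and at 96.2% of the 26 on replicate 2 only.

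The classes had similar numbers of nearest genes. A gene was taken as near a peak if its start was the nearest of 21829 protein-coding genes and lay within 50 kb. Such a gene was found for 1344 on-FOXA1 peaks (64.6%) and 1328 off-FOXA1 peaks (75.7%; log2 odds ratio -0.77 ± 0.10 SE, p = 5.48e-14, Fisher's exact test). The peaks on FOXA1 named 1169 genes (5.36 percent of the genes) and those off FOXA1 named 1143 (5.24 percent). Both classes named 179 genes (0.82 percent), which is 15.3% of the on-FOXA1 genes and 15.7% of the off-FOXA1 genes, and either class named 2133 (9.77 percent). Promoter peaks named 155 genes on FOXA1 (0.71 percent) and 306 off it (1.4 percent), with 6 in common. A nearest start is a position and not evidence that the gene responds.

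Genes of the MYC and MAX network were near a MAX-HA peak in 1 of 13 cases (7.69%), against 9.77 percent of all genes. Max itself had an on-FOXA1 promoter peak (chr12:76962191-76962530, 340 bp), 160 bp from its start and outside its coding bases, and no member had one off FOXA1. That peak carried 2 other constructs and had neither CACGTG nor the forkhead or AP-1 sequence in its central window. Of 50 MYC target genes of growth, 3 were near an off-FOXA1 peak (6%) and 1 near an on-FOXA1 peak (2%), against 5.24 and 5.36 percent of all genes. Eif4e, the cap-binding translation factor, was near one of each class, at 613 bp off FOXA1 and 9770 bp on it, and both peaks had a forkhead sequence. Rrp12, a ribosome assembly gene, had an off-FOXA1 peak 105 bp from its start, and Mat2a, which makes S-adenosylmethionine, had one at 33753 bp. None of these 5 peaks had CACGTG.

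No gene of the liver and endoderm list was near a peak of either class, of 30 examined, against 9.77 percent of all genes. With a list this short, few such genes would be found at that share. Of 32 fibroblast matrix genes, 8 were near an on-FOXA1 peak (25%) and 4 near an off-FOXA1 peak (12.5%), against 5.36 and 5.24 percent of all genes, and no test was made of the lists. On FOXA1 they included Col3a1, a fibrillar collagen gene, with a promoter peak 109 bp from the start and 6 other constructs, and Dcn, the proteoglycan decorin, with a peak at 4295 bp that had a forkhead sequence and no other construct. Col6a2 and Fn1, fibronectin, had on-FOXA1 peaks at 25359 and 27464 bp without a forkhead sequence. Off FOXA1, Col5a2 had 4 peaks between 65 and 23900 bp from its start, all 4 with a forkhead sequence, and Col1a2 had 1 intronic peak at 2679 bp with a forkhead sequence and no other construct. Col6a2 also had an off-FOXA1 peak, at 45194 bp and without a forkhead sequence. Lox, a collagen cross-linking enzyme gene, had 1 off-FOXA1 peak at 30827 bp with a forkhead sequence. Of the 14 AP-1 family genes, 2 were near on-FOXA1 peaks (14.3%, Maff and Mafk) and 3 near off-FOXA1 peaks (21.4%, Fosl2, Jun and Mafk). The shares of all genes were 5.36 and 5.24 percent. The Jun peak, 46235 bp from the start, the Fosl2 peak and the on-FOXA1 Mafk peak had AP-1 sequences. Both Mafk peaks and the Maff peak had forkhead sequences.

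Forkhead genes were examined after the sequence counts were seen. Of 44 forkhead genes examined, 6 had a MAX-HA peak in the gene or within 5 kb, and 1 had a peak on coding bases. Of all 22487 genes with coding bases, 9.34 percent and 0.503 percent did. The gene with the peak on coding bases was Foxb2, whose peak at chr19:16873345-16873572 covered 228 of its 1284 coding bases, lay off FOXA1, and had no other construct and no forkhead sequence in its central window. Peaks at Foxa3, Foxc2, Foxk1 and Foxp1 lay outside coding bases.

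The genes with the most peaks were named in each class. On FOXA1, 25 genes had 3 or more peaks, led by Sfi1 with 7, Gm15319 with 5 and 1600014C10Rik with 4, the first by alphabet of 7 genes with 4. The Sfi1 peaks spread over chr11:3138394-3173917, and 1 of the 7 had a forkhead sequence. They include a run of 5 peaks (chr11:3153889-3173917) in which a single peak carried as many as 20 other constructs. Off FOXA1, 33 genes had 3 or more, led by Zfhx4, a zinc finger homeobox gene, with 11, Prrx1, a homeobox factor of mesenchyme, with 6, and Cdkn2c, a cell cycle inhibitor gene, with 5, the first by alphabet of 3 genes with 5. The Zfhx4 peaks lay in chr3:5203183-5236365 within 15236 bp of its start, and 6 of the 11 had a forkhead sequence. None of the 11 had an AP-1 sequence, and Zfhx4 had no peak on FOXA1.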

How the data were processed

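ChIP-seq peaks of HA-tagged factors in NIH-3T3 cells were taken from 28 lists. The authors aligned paired-end reads to mm10 with STAR 2.5.3a, kept unique alignments, removed duplicates with Picard and called peaks for each sample with MACS2 2.1.1.20160309, discarding any on input peaks or in blacklisted regions. The deposited files give chromosome, start and end in bp and no score, signal or count, so depth and the precision it gives are unknown. The effect of depth on the overlaps was not tested.

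The split, gene lists and sequences were chosen with earlier results of these data known. Overlap meant at least 1 bp, after merging duplicate lists of a construct. Sequence came from GRCm38 and genes from GENCODE vM21, and all peaks lay within its chromosome lengths. Central windows of 200 bp were scanned on both strands, with windows 5000 bp to the right, free of peaks, as controls. Fisher's exact test (two-sided) was applied to shares, with Benjamini-Hochberg adjustment and a threshold of 0.05. To each cell 0.5 was added for the log2 odds ratio. The counting was tested on simulated data. Python 3.11.15, NumPy 2.4.6, SciPy 1.17.1 and Matplotlib 3.10.9 were used.

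Named peaks were the 3 widest promoter and the 3 widest other peaks of each class and, outside chromosome 18, the widest with each sequence. These were taken outside sites of 10 or more other constructs. Also named were the 3 genes with the most peaks, listed target genes and the peaks nearest the overlap limit. The ranking of genes by peaks counted sites of 10 or more other constructs as well. Of longer lists, the first 4 by class in alphabetical order were named. The peaks printed for their centred forkhead sequence were picked with values known. The input library was not used, and a few items that these rules name are not reported here.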

Additional observations from a re-analysis of the deposited data

How the results depend on the processing

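The 10 results of the comparisons were recomputed under 97 alternatives in all, of which 73 were classed as unchanged. For shares compared by Fisher's exact test, unchanged meant the same direction and side of the threshold. The on-FOXA1 share, the number of constructs and the number of genes near both classes had no such test. These were classed by closeness to the reported value, and a fall from 22 to 17 constructs counted as unchanged. Direction and side of the threshold held under every alternative run for the promoter and AP-1 shares of MAX-HA peaks. They also held for the forkhead share of FOXA1-HA peaks with MAX-HA against those without. The other shares seen from FOXA1 were not recomputed. The same was true of the shares with any and with 10 or more other constructs. The promoter difference varied in size with the distance used. Its log2 odds ratio, -1.41 within 1 kb as reported, was -0.63 within 0.5 kb (5.00% on FOXA1 and 7.53% off it) and -1.81 within 2 kb. The number of constructs higher on FOXA1, 22 as reported, was 17 without sites of 10 or more other constructs. It was 21 without replicate 1 or with both replicates against neither. No paired analysis was possible because MAX-HA has 1 list and no replicate numbers shared with FOXA1-HA. Leaving out either FOXA1-HA replicate gave an on-FOXA1 share of 17.3 to 53.6%, an E-box log2 odds ratio of -0.16 to 0.41, a forkhead log2 odds ratio of -0.15 to -0.068 and 110 to 182 genes near both classes, and the 17.3%, 0.41, -0.068 and 110 were without replicate 1. The on-FOXA1 share was 50.5% with a reciprocal overlap of 50% and 66.7% for MAX-HA peaks of at least 300 bp. The E-box ratio, -0.15 as reported, changed sign to 0.020 with reciprocal overlap, 0.29 at 300 bp, 0.25 with both replicates against neither and 0.39 in the central 100 bp, none passing the test. The forkhead ratio, -0.19 as reported, no longer passed an unadjusted threshold at -0.14 for peaks of at least 300 bp, -0.18 on autosomes, -0.087 without sites of 10 or more other constructs, -0.16 with 200 bp windows for overlaps, -0.10 with both replicates against neither, -0.15 away from promoters, -0.10 in the central 100 bp and -0.15 over whole peaks, and was 0.0014 with reciprocal overlap. The cause was not tested. For peaks with no other construct, an alternative chosen after seeing the data, the E-box ratio was 1.28 (p = 0.0552, Fisher's exact test) and the forkhead ratio 0.35. Genes near both classes numbered 35 for peaks of at least 300 bp and 49 within 10 kb. Without peak heights or read numbers, differences in depth between libraries and classes cannot be told apart from differences in binding.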

Other observations

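The values in this section were chosen after the data were seen. MAX-HA peaks off FOXA1 lay in runs more often by count. A run was 4 or more peaks of a class, each within 10 kb of the next. Off FOXA1 there were 4 runs with 24 peaks, and on FOXA1 there were 2 runs with 9 peaks. Of the off-FOXA1 runs, 3 lay at Zfhx4 (chr3:5203183-5223664, 9 peaks, 5 with a forkhead sequence), at Cdkn2c (chr4:109653429-109663986, 5 peaks, 0 with a forkhead sequence) and at Ifne (4 peaks, 1 with a forkhead sequence). No peak of these 3 runs carried more than 3 other constructs. Both on-FOXA1 runs lay at Sfi1, where single peaks carried up to 20 and 21 other constructs.

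Wide peaks of the 2 classes also differed in company. Of 66 on-FOXA1 peaks of at least 600 bp, 0 had no other construct and 19 had 10 or more. Of 36 off-FOXA1 peaks that wide, 20 had no other construct and 0 had 10 or more. Over all peaks of any width, no other construct was present at 6.00% on FOXA1 and 42.3% off it. The shares with 10 or more were 5.81% and 0.228%, so the classes differed in the same direction without regard to width. The forkhead sequence was in 5 of the wide on-FOXA1 peaks and 7 of the wide off-FOXA1 peaks, against 40.3% and 43.5% of all peaks of the classes.

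The related words TGTTGAC and TATTGAC, counted together, were in 16.3% of on-FOXA1 peaks (14.7 to 17.9%) and 14.7% of off-FOXA1 peaks (13.0 to 16.4%). Any of the 4 words was in 53.6% and 54.9%.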
